A study of Mus musculus with 8 samples.

Results

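Pdgfra, Gpr17, Bcas1, Scrg1, Enpp6, Lims2 and Srpk3 are 7 genes of the oligodendrocyte lineage that had lower signal in tertiary neurospheres carrying an shRNA against Nr2f1 and Nr2f2 than in those carrying a control shRNA. They were chosen by that difference between the 2 shRNA arrays of tertiary neurospheres, so it is given here as a description, with no test. They are 7 of the 27137 genes compared, and each is represented by its probe with the highest mean signal. All cultures were derived from EB3, an established line of mouse embryonic stem cells. Embryoid bodies made in the presence of Noggin, a BMP inhibitor, were dissociated at day 6, infected with lentivirus on plating (MOI about 25) and grown in 20 ng/ml FGF2 as neurospheres, free-floating aggregates that hold neural stem cells and their progeny. In all, 4 vectors were used, named as in the labels: shCont, an shRNA against firefly luciferase; shNr2f1/2, an shRNA against Nr2f1 and Nr2f2; miRCont, a control miRNA; and miR17, which expresses miR-17. RNA was taken from primary neurospheres (P0) and from tertiary neurospheres (P2) of each, which gave 8 groups of 1 array. These are mixed populations derived from 1 stem cell line, and no label states that they were independent cultures.

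Oligodendrocyte precursors are glial progenitors that divide, migrate and then mature into the myelinating cells of the central nervous system. Pdgfra, the receptor for PDGF-A, drives their expansion and is switched off as they commit. Gpr17, an orphan G protein-coupled receptor, marks the committed precursors that follow and holds back their maturation. Bcas1 and Enpp6 are high in newly forming, premyelinating oligodendrocytes, and Sox10 and Olig2 are the transcription factors on which the lineage depends. Thus only Pdgfra of the 7 is a standard marker of the dividing precursor. In neural stem cell cultures the glial lineages appear later than neurons, and COUP-TFI and COUP-TFII, the products of Nr2f1 and Nr2f2, are orphan nuclear receptors known from work on that switch.

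The promoter sequences of 3 of the 7 genes are shown because the genes move together across the arrays. They are the 250 bases before the RefSeq start (GRCm38.p6, plus strand, 5′ to 3′), and in all 3 the RefSeq gene span begins further upstream. Capitals mark matches, on either strand, to CAGCTG, to the SOX motif cores ACAAAG and ACAATG, to AGGTCA, the core of nuclear receptor sites, and to TATAAA.
Pdgfra, chr5:75152001-75152250: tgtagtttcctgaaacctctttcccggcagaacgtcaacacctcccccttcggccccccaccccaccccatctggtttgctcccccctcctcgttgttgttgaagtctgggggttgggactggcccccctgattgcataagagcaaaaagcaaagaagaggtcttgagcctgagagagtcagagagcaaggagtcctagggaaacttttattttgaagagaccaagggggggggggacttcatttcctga
Enpp6, chr8:46986637-46986886: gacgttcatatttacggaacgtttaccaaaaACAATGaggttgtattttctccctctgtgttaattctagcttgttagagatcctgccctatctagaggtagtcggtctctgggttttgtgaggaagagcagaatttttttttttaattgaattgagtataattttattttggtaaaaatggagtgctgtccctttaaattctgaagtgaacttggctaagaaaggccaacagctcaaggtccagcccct
Srpk3, chrX:73774155-73774404: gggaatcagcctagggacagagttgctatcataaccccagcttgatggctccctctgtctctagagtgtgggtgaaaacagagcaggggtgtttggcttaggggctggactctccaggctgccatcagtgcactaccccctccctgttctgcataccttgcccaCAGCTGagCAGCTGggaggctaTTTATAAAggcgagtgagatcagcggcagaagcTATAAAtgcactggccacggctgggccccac

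The Srpk3 window has 2 matches to CAGCTG, beginning 86 and 78 bases before the start, and CAGCTG is found in 13.0% of the 32851 promoters of this length. It also has 3 matches to TATAAA, beginning 64, 62 and 31 bases before the start, of which those at 64 and 62 overlap on opposite strands. TATAAA is found in 12.4% of promoters. The Enpp6 window has 1 match to ACAATG, 219 bases before the start, a sequence found in 10.69% of promoters. ACAAAG, found in 16.5%, and AGGTCA, found in 14.0%, are in none of the 3 windows, and the Pdgfra window holds no capital letters. The looser form CANNTG, which includes CAGCTG and is found in 66.2% of promoters, has 1 match in the Pdgfra window, 182 bases before the start. The GC content was 54.4% for Pdgfra, 38.4% for Enpp6 and 56.4% for Srpk3, against a median of 52.4% over all promoters.

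The share of non-control spots well above background was 57.9% to 67.9% per array, with 0 saturated. Levels below are relative signals, the signal divided by the array's own 75th percentile, and they are compared between arrays and not between genes. A probe that the image software did not call well above background is written as dim, and a fold against a dim value is a lower bound that takes the dim array at the higher of its own value and the lowest signal well above background on that array. The neural stem cell genes Sox2, Nes and Fabp7 were well above background on all 8 arrays, with Sox2 at 6.69 to 13.3. The targets of the knockdown were lower on both shRNA arrays that carried it. Nr2f1 read 41.3 against 71.4 in shCont at P0 and 13.3 against 29.9 at P2. Nr2f2 read 7.06 against 10.02 at P0 and 3.15 against 5.88 at P2. On the control miRNA array Nr2f2 was lower still at P2, 2.56. All 8 arrays lay on 1 slide, with the shRNA arrays in 1 column and the miRNA arrays in the other, so vector system and slide column cannot be told apart.

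**Figure D1:**
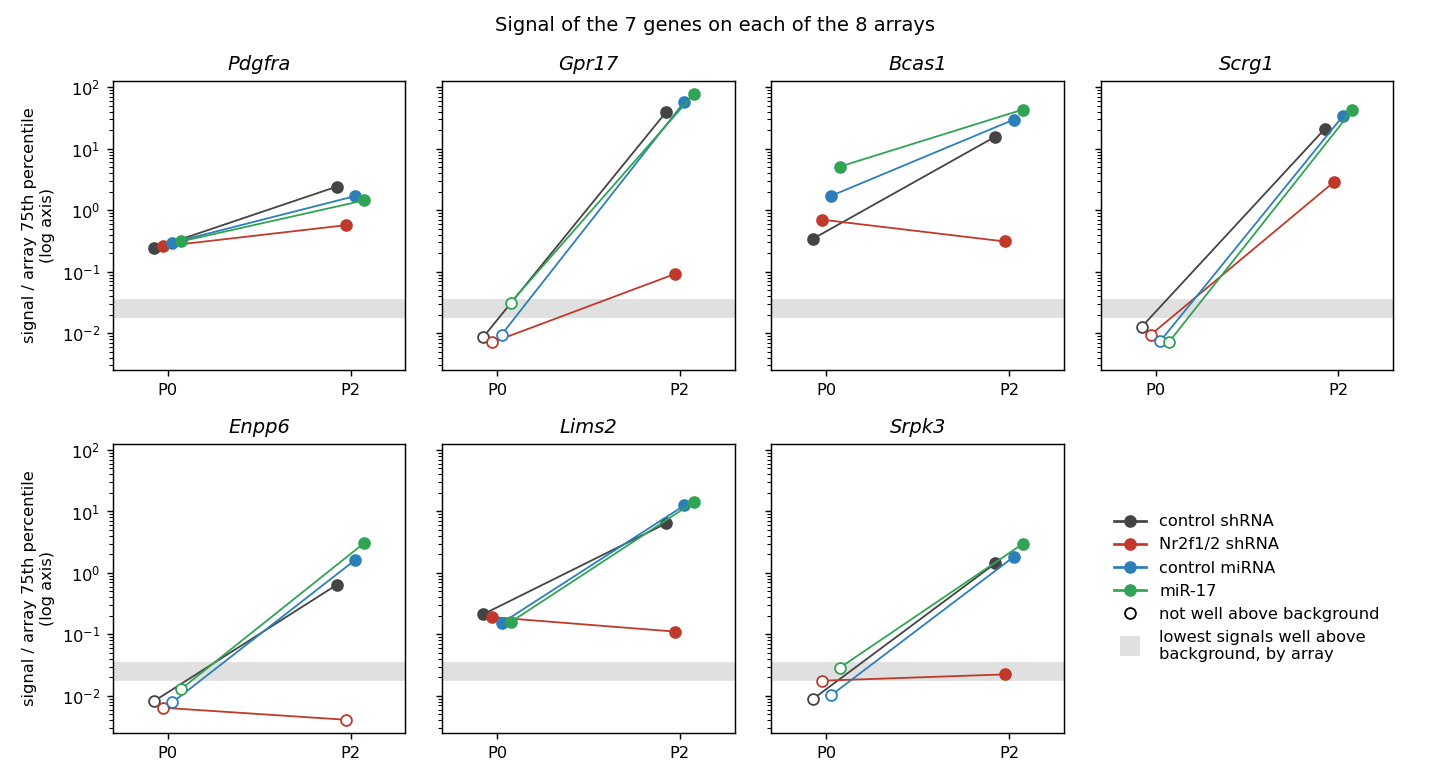
Relative signal (array signal divided by its 75th percentile, log axis) of the 7 genes at P0 and P2, 1 point per array, with the 2 passages of a vector joined. Open circles are dim and the grey band spans the lowest signals well above background, 0.0183 to 0.0345; in every gene the red Nr2f1/2 shRNA point is the lowest of the 4 at P2.

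Of the receptors, Pdgfra was measured on all 8 arrays (probe at chr5:75593888-75593947, mm9, printed 10 times per array). At P0 it read 0.240 in shCont, 0.259 in shNr2f1/2, 0.297 in miRCont and 0.313 in miR17. At P2 it read 2.43 in shCont, 0.572 in shNr2f1/2, 1.70 in miRCont and 1.45 in miR17. Every P2 array thus lay above every P0 array, and the knockdown array lay lowest of the 4 at P2, 4.25-fold below its control. Its repeated spots varied by 4.96% to 11.1% (coefficient of variation within an array), which measures spot noise and not the spread between cultures. In RNA from whole cultures, fewer cells of a type and less RNA per cell cannot be told apart.

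Gpr17, on chromosome 18, was dim on all 4 P0 arrays, at 0.00868 in shCont, 0.00713 in shNr2f1/2, 0.00948 in miRCont and 0.0315 in miR17. At P2 it read 39.6 in shCont, 58.2 in miRCont and 77.3 in miR17, and 0.0924 in shNr2f1/2. The 3 other P2 arrays lay within 1.95-fold of each other, while the knockdown array was 429-fold below its control. Even so, the knockdown P2 array was well above background and at least 3.21-fold above its own P0 array.

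Bcas1, a protein of newly forming oligodendrocytes (probe at chr2:170172648-170172707, mm9), varied most of the 7 at P0. It read 0.341 in shCont, 0.704 in shNr2f1/2, 1.71 in miRCont and 5.13 in miR17, a 15.1-fold range. At P2 it read 15.8 in shCont, 29.8 in miRCont and 43.4 in miR17, but 0.311 in shNr2f1/2. The knockdown array was the lowest of the 8, 50.8-fold below its P2 control and 2.27-fold below its own P0 array. In primary cells the direction was the opposite one, the knockdown reading 2.07-fold above its control.

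Enpp6, a choline-specific glycerophosphodiesterase (probe at chr8:48179484-48179543, mm9), was well above background on 3 arrays. These were the P2 arrays of shCont, at 0.643, of miRCont, at 1.63, and of miR17, at 3.08. It was dim on the 4 P0 arrays, at 0.00641 to 0.0131, and on the P2 knockdown array, at 0.00409. The knockdown was therefore at least 35.1-fold below its P2 control. A further Enpp6 probe, at chr8:48154284-48154343, was well above background on the same 3 arrays, with a difference of at least 7.27-fold.

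Scrg1, a small secreted protein first described in prion-infected brain (probe at chr8:59956257-59956316, mm9), was dim on all 4 P0 arrays, at 0.00729 to 0.0128. At P2 it read 20.9 in shCont, 34.2 in miRCont, 42.1 in miR17 and 2.87 in shNr2f1/2. The knockdown array was 7.29-fold below its control but at least 99.7-fold above its own P0 array.

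Lims2 (PINCH2), an adaptor that links integrin-linked kinase to focal adhesions, was measured on all 8 arrays. At P0 it read 0.213 in shCont, 0.191 in shNr2f1/2, 0.153 in miRCont and 0.159 in miR17, within 1.40-fold. At P2 it read 6.39 in shCont, 12.6 in miRCont and 14.2 in miR17, and 0.111 in shNr2f1/2. The P2 knockdown array was the lowest of the 8 and 57.6-fold below its control. Srpk3, a kinase of SR splicing factors best known from muscle (probe at chrX:71024011-71024070, mm9), was dim on the 4 P0 arrays, at 0.00881 to 0.0289. At P2 it read 1.44 in shCont, 1.83 in miRCont and 2.98 in miR17, and 0.0224 in shNr2f1/2. The last value was only just above the lowest signal called well above background on that array, 0.0183, and was 64.3-fold below the control.

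In the contrast that chose them, the knockdown at P2, all 7 genes were at least 2-fold lower, as were 9.89% of all genes. At 16-fold the count was 5 of 7, Gpr17, Enpp6, Srpk3, Lims2 and Bcas1, against 0.391% of all genes. The differences ran from -8.74 log2 units for Gpr17 to -2.09 for Pdgfra, with a median of -5.85 against 0.07 over all genes. At P0 the knockdown gave other values, and 0 of 7 were at least 2-fold lower, against 1.23% of all genes. There, 2 of 7 were at least 2-fold higher, against 4.5%, but 1 of these, Srpk3, was dim on both arrays. Gpr17, Scrg1 and Enpp6 were also dim on both P0 arrays. The 3 genes measured at P0 differed by 0.11 for Pdgfra, 1.05 for Bcas1 and -0.16 for Lims2 on the log2 scale.

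How the genes behave between passages was tested on the 4 miRNA arrays, which were not in the contrast that chose the genes. The 2 pairs of arrays, P2 against P0 in miRCont and in miR17, were compared in limma over all 27137 genes. Gpr17, Scrg1, Srpk3 and Enpp6 were well above background on P2 arrays only, so they entered the comparison through the passage where they are high, and a count of risen genes says nothing of them. Of all genes 50.6% were called, 19.3% rose and 8503 genes fell. Pdgfra, Bcas1 and Lims2 were measured on all 8 arrays. As lower bounds, Scrg1 rose at least 1115-fold, Gpr17 at least 1969-fold, Srpk3 at least 68.5-fold and Enpp6 at least 65.7-fold. No SE or p-value is given for these genes, because their fitted differences rest on dim P0 values. Lims2 rose 85.6-fold (log2 6.42, SE 0.19, adjusted p = 0.00228 in limma). Bcas1 rose 12.1-fold (3.60, SE 0.33, adjusted p = 0.00382 in limma) and Pdgfra 5.15-fold (2.36, SE 0.21, adjusted p = 0.00362 in limma). The direction was the same in both pairs for every gene. The fit had 1 residual degree of freedom and 2.90 prior. Its p-values therefore rest on how alike the 2 pairs were and, for a large part, on the spread pooled over all genes. The median of all genes moved by -0.24 (0.01 after quantile normalization). Of the genes called, 38.1% rose, and 49.7% did after quantile normalization.

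A fit of all 4 vectors includes the arrays that chose the genes, so its values for the 7 genes are a description. It called 3 of the 7, each of them higher at P2, where 4.92% of all genes were called and 2.59% rose. Of these 3, Scrg1 and Gpr17 were dim on all P0 arrays and entered through the P2 arrays, so the count says nothing of them. Scrg1 rose at least 533-fold, Gpr17 at least 352-fold and Pdgfra 4.93-fold (log2 2.30, SE 0.38). The other 4 were not called. Their fitted differences were 5.47 for Srpk3, 5.30 for Enpp6, 4.24 for Lims2 and 2.89 for Bcas1, with Srpk3 and Enpp6 dim on all P0 arrays. With vector as a block, leaving out either array of a vector gives the same fit, since its partner alone holds no passage difference. Without the knockdown vector, whose P2 array chose the genes, the fit called 7 of 7 and 4760 of all 27137 genes. Scrg1, Gpr17, Srpk3 and Enpp6 entered through the P2 arrays, so that count says nothing of them. Without any single other vector the fit called 0 of 7 and 0 of all genes. It called 0 of 7 and 0 of all genes in the shRNA arrays alone and in the control arrays alone. These counts of 0 are therefore not particular to the 7 genes. Of its 1335 called genes 52.7% rose, against 66.2% with quantile normalization and 30.7% with normexp.

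**Figure D2:**
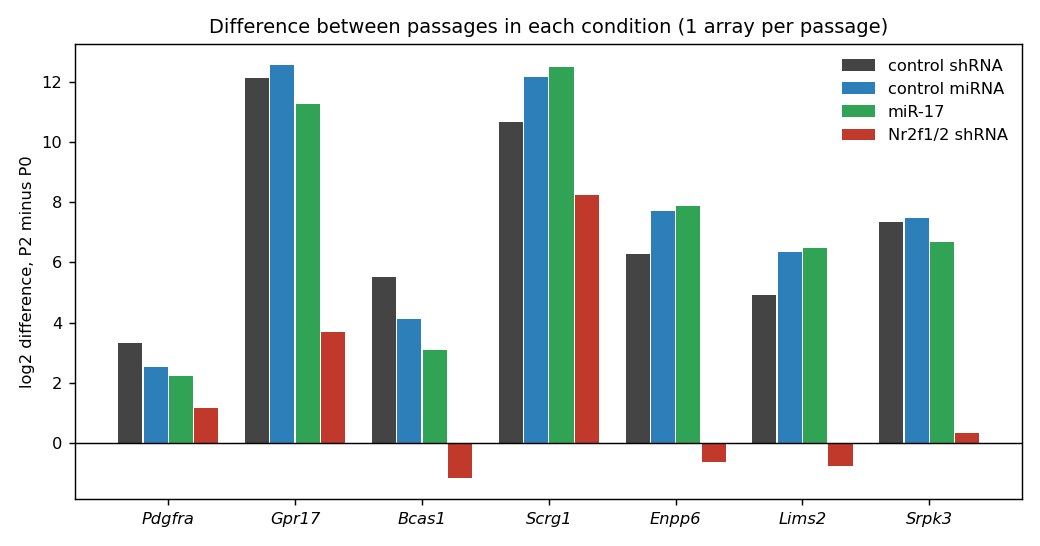
Difference between P2 and P0 (log2, array values as read, dim values included) for each gene in each of the 4 vectors, 1 array per passage. The bars of shCont, miRCont and miR17 run from 2.21 to 12.58, and the red bars of shNr2f1/2 from -1.18 (Bcas1) to 8.24 (Scrg1).

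Read vector by vector, with 1 array per passage and no test, the 7 genes were each at least 2-fold higher at P2 in shCont (12.9% of all genes), in miRCont (15.8%) and in miR17 (15.4%). In the knockdown 3 of 7 were, Pdgfra, Gpr17 and Scrg1, against 6.36% of all genes. Bcas1 was at least 2-fold lower there, as were 8.18% of all genes. Counts of higher genes say nothing of Gpr17, Scrg1, Enpp6 and Srpk3, which were dim on all P0 arrays and entered through P2 arrays. Pdgfra was 10.1-fold higher at P2 in shCont, 5.72-fold in miRCont and 4.64-fold in miR17, and 2.21-fold in the knockdown. Bcas1 was 46.3-fold, 17.4-fold and 8.46-fold higher in those 3, while its P0 levels ran in the opposite order. Lims2 was 29.9-fold, 82.3-fold and 89.0-fold higher, and 1.72-fold lower in the knockdown. The 4 P2 arrays lay above all 4 P0 arrays for 3 of 7 genes, Pdgfra, Gpr17 and Scrg1, against 9.29% of all genes. Without the knockdown array they did so for 7 of 7, against 17.6%. These counts, too, say nothing of the genes that were dim on all P0 arrays. These comparisons share the shCont arrays with the knockdown contrast, and the first of the counts above P0 also uses the P2 knockdown array, whose low value chose the genes, so nothing is read from the step from 3 to 7.

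The low values at P2 can be set beside those of other genes with the same course. A set of 723 genes, the 7 among them, was higher at P2 by 4-fold or more in each of shCont, miRCont and miR17. Of the 723, 634 (87.7%) were at least 2-fold lower and 400 (55.3%) at least 4-fold lower in the P2 knockdown than in its control, and 89 (12.3%) at least 16-fold lower. In the knockdown itself 191 of the 723 (26.4%) were at least 4-fold higher at P2, among them Gpr17 and Scrg1. The 723 share the shCont P2 array with the contrast, so a high value on that array enters both differences.

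**Figure D3:**
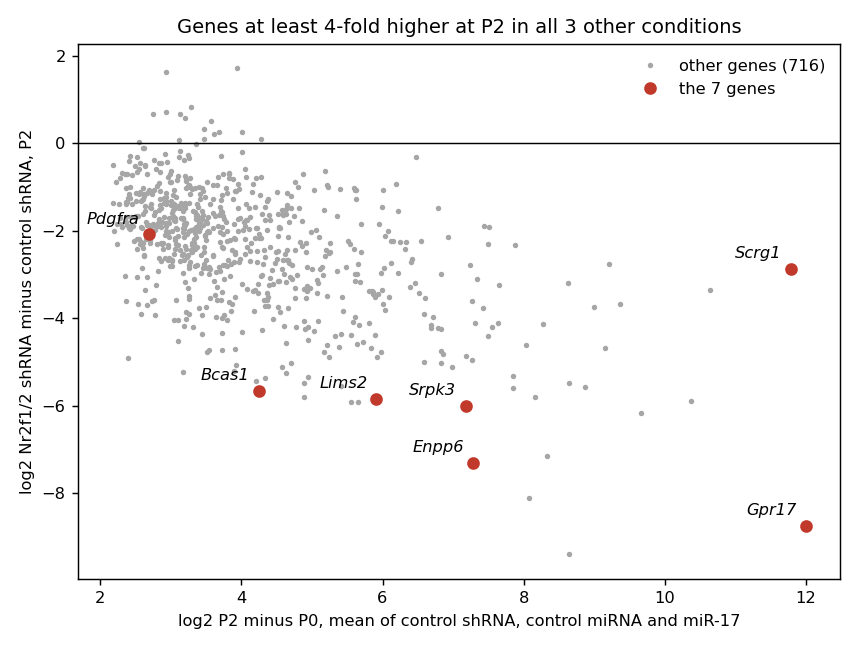
Knockdown difference at P2 (log2, vertical) against the mean passage difference in the 3 other vectors (log2, horizontal) for the 723 genes at least 4-fold higher at P2 in all 3, 1 point per gene. The 7 genes (red) lie between -2.09 (Pdgfra) and -8.74 (Gpr17), and the median of the 723 is -2.18.

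With miR-17 at P2, 6 of 7 were higher than in miRCont, by 0.17 (Lims2) to 0.92 (Enpp6) log2 units, and Pdgfra was lower, at -0.23. None reached 2-fold, which 4.16% of all genes did. At P0 3 of 7 were at least 2-fold higher, against 4.61% of all genes, but Gpr17 and Srpk3 were dim on both arrays. The measured one was Bcas1, 3.01-fold higher. Averaged over passages in limma, miR-17 gave 0 called genes of 27137 (0%, 270 at an unadjusted p under 0.05). That fit used all 8 arrays and gave every vector the same passage difference. A different passage change in the knockdown therefore adds to its SEs. For Lims2 the SE of the passage difference was 1.31 in that fit and 0.19 on the miRNA arrays alone. Of the genes measured on all 8 arrays, the fitted difference was -0.08 for Pdgfra (SE 0.54), 0.12 for Lims2 (SE 1.86) and 1.07 for Bcas1 (SE 1.57). Each had adjusted p = 0.9998 in limma. Gpr17, Scrg1, Enpp6 and Srpk3 were dim on both P0 miRNA arrays, so no fitted values are given for them.

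The control cultures give the size of a difference with neither treatment. At P2 miRCont differed from shCont by -0.51 (Pdgfra) to 1.34 (Enpp6) log2 units over the 7 genes. Of the 7, 1 was at least 2-fold higher, Enpp6, against 10.9% of all genes. At P0 Bcas1 was 5.02-fold higher in miRCont, where 16.6% of all genes were at least 2-fold higher.

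Other genes of the lineage were taken from lists. Of 20 further precursor and committed-precursor genes, 13 rose and 2 fell with passage in the miRNA arrays, with a median of 2.00 log2 units. Of all 27137 genes 19.3% rose and 8503 fell. Sox10 rose 61.2-fold, the matrix protein Tnr 33.3-fold, Lhfpl3 at least 47.9-fold and Sox8 at least 33.0-fold, with adjusted p from 0.00228 to 0.00629 in limma. The last 2 were dim on 1 of the P0 miRNA arrays. Their p-values rest in part on that dim value and do not test the lower bounds. Tmem163 and Zfp488 fell. In the P2 knockdown 10 of the 20 were at least 2-fold lower (9.89% of all genes) and 0 at least 2-fold higher (9%), with a median of -1.47. At P0 2 of the 20 were at least 2-fold lower (1.23% of all genes) and 0 at least 2-fold higher (4.5%). These were Lhfpl3, at -1.96, and Sox8, at -1.53, both dim in the P0 control. Sox10 read 6.50 in shCont and 0.279 in the knockdown, a difference of -4.54. Matn4 differed by -3.90, Tnr by -3.53, Sox8 by -3.51, Olig1 by -2.28 and Olig2 by -2.11. Cspg4 (NG2), a surface proteoglycan of dividing precursors, differed by -0.76, and Vcan by 0.98.

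Of 20 myelin and mature oligodendrocyte genes, 16 rose (19.3% of all genes) and 1 (Ermn) fell with passage in the miRNA arrays, with a median of 5.02. Mal, a proteolipid, rose at least 912-fold and Mobp at least 302-fold, both from dim values on the P0 miRNA arrays. Plxnb3, dim on the P0 miRCont array, rose at least 335-fold, and Mag rose 308-fold (adjusted p = 0.00228 in limma). In the P2 knockdown 14 of the 20 were at least 2-fold lower (9.89% of all genes) and 0 at least 2-fold higher (9%), with a median of -2.86. Plxnb3 differed by -5.49 and Cldn11 by -4.39, and Mal, dim in the knockdown, was at least 25.3-fold lower. Mbp differed by 0.69 there, and its passage difference of -0.20 was not called. In the fit of all 8 arrays 5 of these 20 genes and 5 of the 20 precursor genes rose (2.59% of all genes), and none fell. At P0 0 of the 20 myelin genes were at least 2-fold lower or higher in the knockdown (1.23% and 4.5% of all genes).

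The partners and relatives of the 7 genes were counted in the same way. Of all 27137 genes 19.3% rose and 8503 fell with passage in the miRNA arrays. In the P2 knockdown 9.89% of all genes were at least 2-fold lower and 9% at least 2-fold higher. Each family holds few genes, so nothing is read from the counts below. Of 6 PDGF ligands and other receptors, 2 rose with passage in the miRNA arrays. Pdgfa rose by 2.62 (SE 0.19, adjusted p = 0.00285 in limma), and Pdgfd, dim on both P0 arrays, at least 1.39-fold. Pdgfa, the ligand of Pdgfra, read 21.6 in shCont and 12.2 in the knockdown at P2. Of the 6, Pdgfb was the 1 at least 2-fold lower there, at -2.27. Of 5 Enpp relatives measured, Enpp2, Enpp4 and Enpp5 rose and Enpp3 fell, and in the P2 knockdown 4 were at least 2-fold lower while Enpp3 was 5.04-fold higher. Of 7 genes of the integrin-linked kinase complex, 3 rose, Rsu1, Parvb and Ilk, and 1, Parvb, was at least 2-fold lower in the P2 knockdown, at -1.15. Lims1, the other PINCH gene, differed by -0.32. Of 7 SR kinases and SR proteins, Srpk2 rose and Srpk1, Srsf1 and Srsf2 fell, and in the P2 knockdown 2 were at least 2-fold higher, Srsf1 and Srsf2, the latter at 1.20. Pdgfrb is also in the fibroblast list, Enpp2 in the myelin list and Sox10 in the neural crest list. Of 5 receptors related to Gpr17 or Scrg1, 3 were measured. P2ry12 and P2ry2 rose and Cysltr1 fell with passage in the miRNA arrays, with P2ry12 dim at P0. In the P2 knockdown P2ry2 was at least 6.10-fold lower and dim. P2ry12 was the 1 read at least 2-fold higher there, but it was dim on both arrays and no difference is given.

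Markers of other cell types moved in the same comparison. All 10 astrocyte genes were measured, and 9 were at least 2-fold lower in the P2 knockdown (9.89% of all genes), with a median of -2.70. Their summed relative signal was 71.6 in shCont, 16.4 in the knockdown, 297 in miRCont and 245 in miR17 at P2, and 7.28 to 13.9 at P0. Of 10 cell cycle genes, 10 exceeded 2-fold in the upward direction in the P2 knockdown (9% of all genes), with a median of 2.49. Their sum was 99.9 there, against 22.2 to 25.6 on the other 3 P2 arrays and 93.0 to 139 at P0. None of 9 neuron genes measured differed by 2-fold, where 9.89% of all genes were lower and 9% higher. Their sum was 135 in shCont and 123 in the knockdown. With passage in the miRNA arrays, 8 of 10 astrocyte genes rose, 10 of 10 cell cycle genes fell and 5 of 9 neuron genes fell. Of all 27137 genes 19.3% rose and 8503 fell. The part of astrocyte content and of proliferation in the values of the 7 genes was not tested.

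Pdgfra is also made by fibroblasts and meningeal cells, and 10 of their genes were measured. In the P2 knockdown 5 of the 10 were at least 2-fold lower (9.89% of all genes), with a median of -1.04, and between the passages of the knockdown all 10 were at least 2-fold higher (6.36%). Their sum was 6.79 at P0 and 75.4 at P2 in shCont, 8.40 and 36.8 in the knockdown, 21.3 and 76.0 in miRCont, and 37.9 and 88.6 in miR17. The part of these cells in the Pdgfra values was not tested. For Srpk3, the muscle list held 6 measured genes of 10, Myog, Myf5, Des and Ckm being well above background on fewer than 2 arrays. The muscle sum was 1.44 to 2.42 at P0 and 1.53 to 2.92 at P2, highest at P2 in miR17, and in the P2 knockdown 0 of 6 were at least 2-fold lower and 1 was at least 2-fold higher, Tnnt1, at 1.91. Of 8 Schwann and neural crest genes measured, Sox10 and Egr2 were at least 2-fold lower and 1 was read at least 2-fold higher, Erbb3, which was dim in the control and at least 1.86-fold higher, with a median of 0.18 over the list. Of 9 early mesoderm and endoderm genes 2 were at least 2-fold lower, and of 8 endothelial and blood genes 2 were lower and 1 higher, where 9.89% of all genes were lower and 9% higher.

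Some of the 7 genes lie next to each other or to another gene of the lineage. By RefSeq (GRCm38.p6) Gpr17 lies inside the span of Lims2 on chromosome 18, and their probes read opposite strands. The protein-coding genes on either side are Sft2d3 and Myo7b. Sft2d3 differed by 0.08 in the P2 knockdown, against -8.74 for Gpr17 and -5.85 for Lims2, and Myo7b was dim on both arrays. Srpk3 on the X chromosome neighbours Plxnb3, a plexin receptor of oligodendrocytes. Plxnb3 read 4.95 in shCont, 0.110 in the knockdown, 11.6 in miRCont and 14.6 in miR17 at P2, and was dim on 3 of 4 P0 arrays. It was 44.9-fold below its control in the P2 knockdown, while Idh3g, on the other side of Srpk3, differed by 0.15.

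No neighbour of the other 4 genes was at least 2-fold lower. Beside Enpp6, Irf2 differed by -0.38 and Stox2 by 0.07. Beside Bcas1, Zfp217 differed by 0.82, and Cyp24a1 was dim in the control. Beside Scrg1, Hand2, a transcription factor of heart and sympathetic neurons, differed by 3.70 and Sap30 by 1.31. Beside Pdgfra, Gsx2, a homeobox gene of the ventral forebrain, differed by 2.91 and Kit by 1.26. These are differences between 2 arrays, with no replicate check. In the P2 control Hand2 read 0.0262 and Gsx2 0.0290. Both were only just above the lowest signal called well above background on that array, 0.0205.

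**Figure D4:**
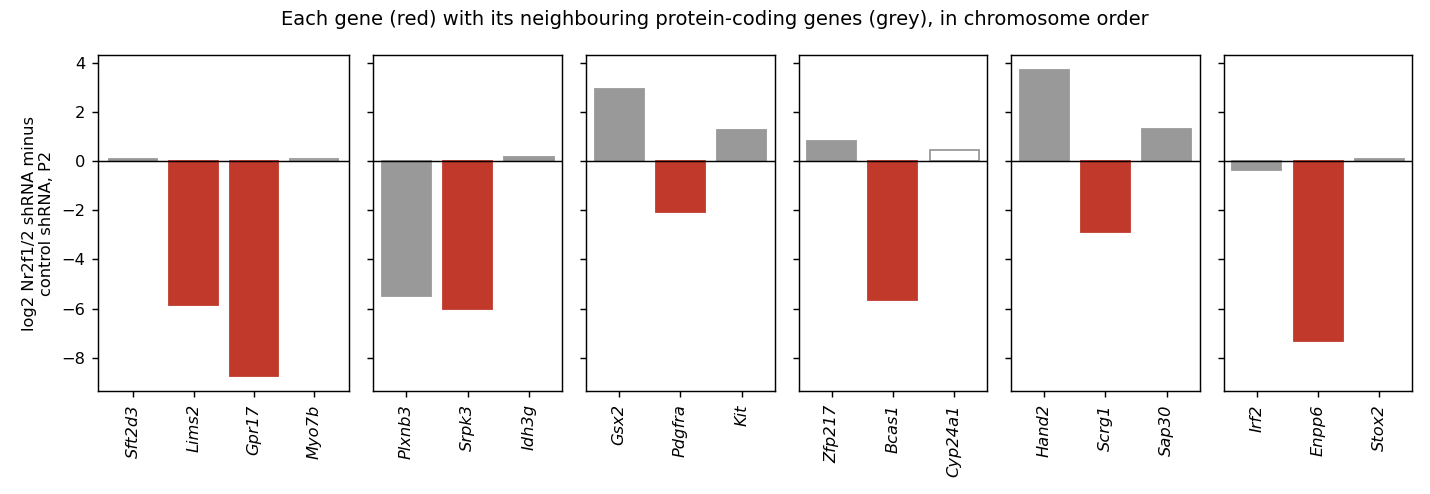
Knockdown difference at P2 (log2, 1 array against 1) of the 7 genes (red) and of the protein-coding genes next to them (grey), in chromosome order, with no distance scale. Open bars are neighbours dim on 1 or both arrays (Myo7b, Cyp24a1), and the Enpp6 bar is drawn as read though dim in the knockdown; among the filled grey bars only Plxnb3 reaches -1 or lower, at -5.49.

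The likeness of the 7 genes over the 8 arrays was described by Pearson's r, with no test, since the arrays share passages and vectors. Between pairs of the 7, r ran from 0.66 (Bcas1 with Scrg1) to 0.99 (Enpp6 with Lims2). Against the mean profile of the 7, each scaled over the 8 arrays, the 8 closest of 15220 ranked genes were Nrbp2, Itpr2, Sox10, Kcnip3, Tekt4, Fa2h, Endod1 and Rfx4, with r from 0.993 to 0.998. Such values were common, with 550 genes at r of 0.95 or more. Of these 8, 0 were among the closest by Spearman's rho and 2 with dim values set to the floor. Nrbp2, a pseudokinase, read 12.6 to 16.03 at P0, 43.1 in shCont, 54.3 in miRCont and 54.9 in miR17 at P2, and 15.9 in the P2 knockdown. Fa2h, which makes hydroxylated lipids of myelin, was dim except at P2 in shCont, at 1.76, in miRCont, at 2.94, and in miR17, at 5.83. Itpr2, a calcium channel of the endoplasmic reticulum, read 2.08 to 3.03 at P0, 13.0, 13.1 and 16.9 on those 3 P2 arrays, and 2.73 in the P2 knockdown.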

How the data were processed

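RNA of 8 mouse neurosphere cultures, labelled with Cy3 from 50 ng, was measured on 8 single-colour Agilent arrays, 1 per group, read with Agilent Feature Extraction 10.7.3.1, per the submitters' processing notes. The deposited scanner files give background-subtracted intensity per spot with flags (another kind of value) for spots well above background, per the file headers. The authors' deposited table of signal is the same intensity after division by an array constant (481 to 949). Its values are linear and not centred by gene, with column medians of 0.0662 to 0.124, and the choice of constants is not stated in any label or header used. It was used as an alternative.

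Control spots and outlier flags were left out, log2 intensities were averaged by probe, and each array's log2 75th percentile was subtracted. Probes well above background on 2 or more arrays were kept (39640 of 55653), and a gene took its brightest probe. The 7 genes, the 15 lists (151 genes, 138 measured) and the tests were chosen with earlier results of these data known. Vector and passage were the factors of a limma fit (3.58.1, R 4.3.3) on all arrays (3 residual degrees of freedom, 2.19 prior) and on the miRNA arrays (1, with 2.90 prior), two-sided. Genes with p under 0.05 after Benjamini-Hochberg adjustment over all 27137 were called, after the code was tested on simulated data. Differences between single arrays have no test and were counted at 2-fold. The number of arrays limits the precision, and p-values measure only the spread between these arrays. Genes named were the 7, the knockdown targets, the up to 4 most different of each list in a given comparison, neighbours of the 7, and the 8 genes closest in profile. Names beyond these were added after their values were seen, and some list genes are not reported here. Probe positions are mm9, per the file headers. Promoters are from RefSeq (GRCm38.p6). All 7 genes were in RefSeq, but the promoter set held 3 of them.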

Additional observations from a re-analysis of the deposited data

Results flagged for a closer look

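In 3 of the 7 genes 1 of the 4 P2 arrays stood apart. The gap from the P2 knockdown array to the next lowest was taken as a share of the range of the 4 log2 values. It was 0.901 for Gpr17, 0.851 for Srpk3 and 0.836 for Lims2. These were flagged because the gap passed Dixon's 95% critical value for 4 samples. No chance rate applies, because the knockdown array chose these genes and the 4 arrays carry different vectors. The low value there is a description.

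In other cases a difference pointed in opposite directions at the 2 passages, with 1 array each, and the change was not tested. Bcas1 was 1.05 log2 units above its control in the knockdown at P0 and -5.67 at P2, a change of -6.71. Pdgfra differed by 0.11 at P0 and -2.09 at P2 in the knockdown, a change of -2.19. With miR-17 Pdgfra differed by 0.07 at P0 and -0.23 at P2, a change of -0.30, which is smaller than its difference between the control cultures at P2.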

How the results depend on the processing

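Under each scaling, filter and probe alternative run, the 7 genes had the same direction in both passage fits and in the P2 knockdown, except that a filter on 4 arrays removes Enpp6. The count of genes called for passage over all arrays moved most. Against 1335, it was 7027 with normexp, 2518 with a filter on 4 arrays, 2199 with dim values at the floor, 4299 with a trended prior and 3905 without vector as a block. It was 0 in the shRNA arrays alone (5003 at an unadjusted p under 0.05 in limma) and 0 in the control arrays alone (5730). Leaving out single arrays, which amounts to leaving out their vector, gave 0 to 4760 genes and 0 to 7 of the 7 called. With normexp 5 of the 7 were called. At P0 with miR-17, the genes at least 2-fold higher were 1 with normexp, 1 at the floor and 0 at a 4-fold limit. The 4-fold limit also gave 0 between the control cultures at P2. Of the 8 closest profiles 0 were kept by Spearman's rho and 2 at the floor. Dim values changed sign: in the P0 knockdown Srpk3 gave -0.0083 with normexp and -0.16 at the floor, and with miR-17 at P0 Gpr17 and Srpk3 each gave -0.0399 at the floor. The P2 knockdown difference of Enpp6 was -3.45 with normexp, -5.13 at the floor, -6.08 as the mean of its probes and -4.87 on the further probe, the last added after seeing the data. With normexp it was -7.98 for Gpr17, -5.16 for Lims2 and -4.19 for Srpk3. The miR-17 fit was also run without the knockdown arrays and on the miRNA arrays alone, added after seeing the data, with 0 called each time (323 and 2295 at an unadjusted p under 0.05 in limma). The causes were not tested. No paired analysis was possible because the labels number no replicates; the fits pair the passages by vector only. Signal over background limits Gpr17, Scrg1, Enpp6 and Srpk3 at P0.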
